A study of Homo sapiens with 9 samples.

Results

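The kallikrein-related peptidases are secreted serine proteases of stratified epithelia, and 9 of their genes are described here: KLK5, KLK6, KLK7, KLK8, KLK10, KLK11, KLK12, KLK13 and KLK14. They were taken from the tables by symbol, with no threshold on measured values, and are 9 of the 24672 genes in the deposited tables. They also make up 9 of the 16 kallikrein genes there, a number that includes the pseudogene KLKP1. All 9 had enough counts to be tested, as did 12806 genes in all.

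RNA was sequenced from EPC2, a line of human esophageal epithelial cells immortalised with telomerase reverse transcriptase. All libraries came from this 1 line, grown in serum-free keratinocyte medium with 1 ng/mL epidermal growth factor, 50 ug/mL bovine pituitary extract and antibiotics. The ALI control libraries (n = 3) came from cells given a non-silencing control and differentiated at an air-liquid interface (ALI). The ALI silenced libraries (n = 3) came from cells in which the SPINK7 gene was silenced, grown in the same way. SPINK7 encodes a Kazal-type inhibitor of serine proteases. For both ALI groups the cells reached confluence in 0.09 mM calcium, went into 1.8 mM calcium on day 2, met the air on day 7 and were collected on day 14. The days and library numbers given here follow the labels, whereas the names of the ALI tables say day 7 and number several ALI libraries differently. The monolayer libraries (n = 3) came from undifferentiated cells with the non-silencing control. The sources used here do not say how SPINK7 was silenced, whether a single clone was used, or whether replicate libraries stem from separate cultures. The p-values therefore reflect only how far these libraries scatter, which can be technical.

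Kallikrein-related peptidases are made as inactive precursors and are activated outside the cell when a short leading peptide is removed. KLK5, which cuts after basic residues, can activate itself and also KLK7 and KLK14. In the outer layers of stratified epithelium these proteases cut the junction proteins that hold dead or dying cells together, and the inhibitor LEKTI, the product of SPINK5, keeps them in check. The genes stand side by side in a single cluster, so their levels can be compared along 1 stretch of chromosome as well as by role.

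In the deposited coordinates (hg19) the 16 kallikrein genes lie on chromosome 19 between positions 51322404 and 51587502, a stretch of 265.1 kb. The 9 genes described here fill the far end of it, from 51446559 to 51587502 (140.9 kb), and all are read from the minus strand. KLK5 comes first (51446559 to 51456344), followed in order by KLK6 (51461887 to 51472929), KLK7 (51479735 to 51487320), KLK8 (51499264 to 51504958), KLK10 (51516000 to 51523431), KLK11 (51525487 to 51531290), KLK12 (51532348 to 51538148), KLK13 (51559463 to 51568367) and KLK14 (51581154 to 51587502). The part of each gene that was counted is not given in the sources used here. KLK9 lies between KLK8 and KLK10.

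The sequences just before the transcription start are shown for KLK5, the initiator of the cascade, and for KLK12, the member with the largest absolute log2 fold change between the ALI groups in the edgeR fit. Both are the 250 bases 5′ of the start in the RefSeq table for GRCh38.p14, on the minus strand, at chr19:50953039-50953288 for KLK5 and chr19:51035003-51035252 for KLK12.
KLK5: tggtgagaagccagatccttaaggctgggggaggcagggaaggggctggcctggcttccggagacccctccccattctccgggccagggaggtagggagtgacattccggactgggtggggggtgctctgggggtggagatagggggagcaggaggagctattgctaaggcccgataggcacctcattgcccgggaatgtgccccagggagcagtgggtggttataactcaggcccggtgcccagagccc
KLK12: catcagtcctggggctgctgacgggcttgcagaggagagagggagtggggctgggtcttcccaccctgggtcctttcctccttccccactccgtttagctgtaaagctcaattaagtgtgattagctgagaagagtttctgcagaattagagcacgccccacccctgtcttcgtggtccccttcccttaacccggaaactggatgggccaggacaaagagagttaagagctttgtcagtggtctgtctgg

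RefSeq lists 3 starts for KLK7. The 30 bases before the start at position 50984064 and before the start at position 50983815 (GRCh38.p14, minus strand) are shown because the deposited tables hold 2 KLK7 transcript rows whose starts also lie 249 bases apart, and those rows behaved differently (described further on).
KLK7, upstream start: gggagggtggagagagagtgcagtggtgcc
KLK7, downstream start: aagaggcttcatcaagggtgcacctgtagg
The table matched 8 of the 9 members by symbol (all but KLK8), with 15 starts in all. A search of the 250 bases before each start, on both strands, looked for AP-1 (TGANTCA), Grainyhead-like (AACCGGTT) and the TATA box (TATAAA). None of these letter strings occurred in the 15 windows, and no capitals are therefore used in the sequences. Over 35116 promoters of the same length, AP-1 occurred in 6.57%, Grainyhead-like in 0.117% and the TATA box in 10.7%.

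Total counts were 7641960 to 9863537 in the ALI control libraries, 8619938 to 14009746 in the ALI silenced libraries and 9034424 to 12989094 in the monolayer libraries. SPINK7 stood at 225.4 to 260.8 CPM (counts scaled to a common library size and composition) in the ALI controls, at 20.93 to 38.61 CPM in the silenced libraries and at 0.2125 to 0.7449 CPM in the monolayers, so every silenced library was below every ALI control. The 7 markers of squamous epithelium summed to 31340 to 77030, 42360 to 80630 and 25420 to 26160 CPM in these groups, while 4 leukocyte markers, with PTPRC at 0 in every library, summed to at most 1.473 CPM. The endothelial markers reached at most 9.622 CPM, nearly all of it VWF, with at most 3 counts each of PECAM1 and CDH5 over all libraries, and the melanocyte markers at most 3.278 CPM. The fibroblast sum was 12.23 to 49.17, 20.54 to 45.41 and 48.95 to 184.3 CPM, with LUM at 0. Nearly all of it was COL1A1, while COL3A1, PDGFRB and PDGFRA had 6, 2 and 41 counts over all libraries. The 184.3 CPM was monolayer library 1, against 52.31 and 48.95 CPM in libraries 2 and 3. The simple or glandular sum (KRT8 and KRT18, with MUC5B at 0) was 75.68 to 184, 201.4 to 337.5 and 346.9 to 526.2 CPM. Sums hide single markers. Within the squamous list KRT4, a keratin of differentiated cells, was lower in the silenced libraries than in the ALI controls (log2 fold change -1.98, edgeR adjusted p = 0.0138). IVL, the involucrin gene, had a value of -1.11 (edgeR adjusted p = 0.331) and KRT13 of -0.6. The other 4 had positive values: KRT5 0.48, TP63 0.41, KRT6A 0.08 and KRT14 0.06. The part of these markers in the kallikrein differences was not tested. Both ALI libraries numbered 2 stood apart from the other ALI libraries on the second principal component (14% of the variance, at -78.5 and -25.5 against 14.3 to 55). Their summed level of 5 proliferation genes was also the lowest of their groups, 18.29 against 126.3 and 135.5 CPM in the controls and 9.961 against 313.3 and 295.8 CPM in the silenced libraries.

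All 9 kallikreins were higher in the differentiated ALI controls than in the monolayers, with fitted values of 4.19 to 11.82 on the log2 scale. The upper end is KLK12, which had 0 monolayer counts, so that value depends on the fit. KLK7, a chymotrypsin-like protease that cuts corneodesmosomes, was at 1.558, 0.6071 and 0.9578 CPM in the 3 monolayers and at 393.5, 252.5 and 418.3 CPM in the ALI controls. Its groups lay far apart, and the log2 fold change was 8.35 (SE 0.42, edgeR adjusted p = 9.59e-07). KLK5 was at 24.22, 10.32 and 11.81 CPM in the monolayers and at 231.6, 300.8 and 319.5 CPM in the ALI controls. Its fitted rise was the smallest of the 9, 4.19 (SE 0.36, edgeR adjusted p = 1.89e-05), which is 18.3-fold. KLK14, with 0 monolayer counts, had a lower bound of about that size (18.4-fold, described below), so their order is not settled.

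KLK10, which has no well established protease activity, was at 2.974, 1.821 and 4.15 CPM in the monolayers and at 390.7, 163 and 487.9 CPM in the ALI controls (log2 fold change 6.86, SE 0.51, edgeR adjusted p = 8.1e-06). The trypsin-like KLK8 went from 1.581 CPM on average to 96.08 ± 16.14 CPM (SD, n = 3), a rise of 5.91 on the log2 scale (SE 0.32, edgeR adjusted p = 1.21e-06). KLK11, also trypsin-like, went from 0.9634 CPM to 83.57 ± 27.39 CPM (SD, n = 3), a rise of 6.36 (SE 0.47, edgeR adjusted p = 8.1e-06). For each of these 3 genes every ALI control library exceeded every monolayer library. KLK10 and KLK11 each had equal counts on all 3 transcript rows in 2 monolayers. Those summed monolayer levels may count the same reads more than once, which was not tested.

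KLK6, KLK12, KLK13 and KLK14 were close to or at 0 before differentiation. KLK6 had 13 counts in the monolayers, all in library 1, against 42.3 ± 8.675 CPM (SD, n = 3) in the ALI controls (log2 fold change 6.80, SE 0.90, edgeR adjusted p = 0.000317). KLK13 had 7 counts over the 3 monolayers against 31.51 ± 10.82 CPM (SD, n = 3), a rise of 7.15 (SE 0.43, edgeR adjusted p = 2.51e-06). KLK12 and KLK14 had 0 counts in all 3 monolayers, which allows up to 0.0898 CPM (3 counts over the group, counting error only).

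Against that limit KLK12 was at least 504-fold higher in the ALI controls, with 1124 counts there, and KLK14 at least 18.4-fold higher, with 41 counts. Their fitted log2 fold changes of 11.82 and 7.03 depend on the fit and are not bounds. Of all 12806 genes tested, 20.3% were called higher and 20.2% lower in this comparison, and the median log2 fold change was 0.028, against 9 of 9 called higher and a median of 6.86 for the kallikreins. With KLK12 and KLK14 set at their bounds, the family median was 6.80. KLK6, KLK7, KLK11, KLK12, KLK13 and KLK14 were at 0 or low in the monolayers and high in the ALI libraries. They passed the count filter only with the ALI libraries. The count of 9 therefore describes the family and does not test it. With only the 2 groups compared, KLK14 was not tested, and 8 of 8 members were called higher.

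**Figure D1:**
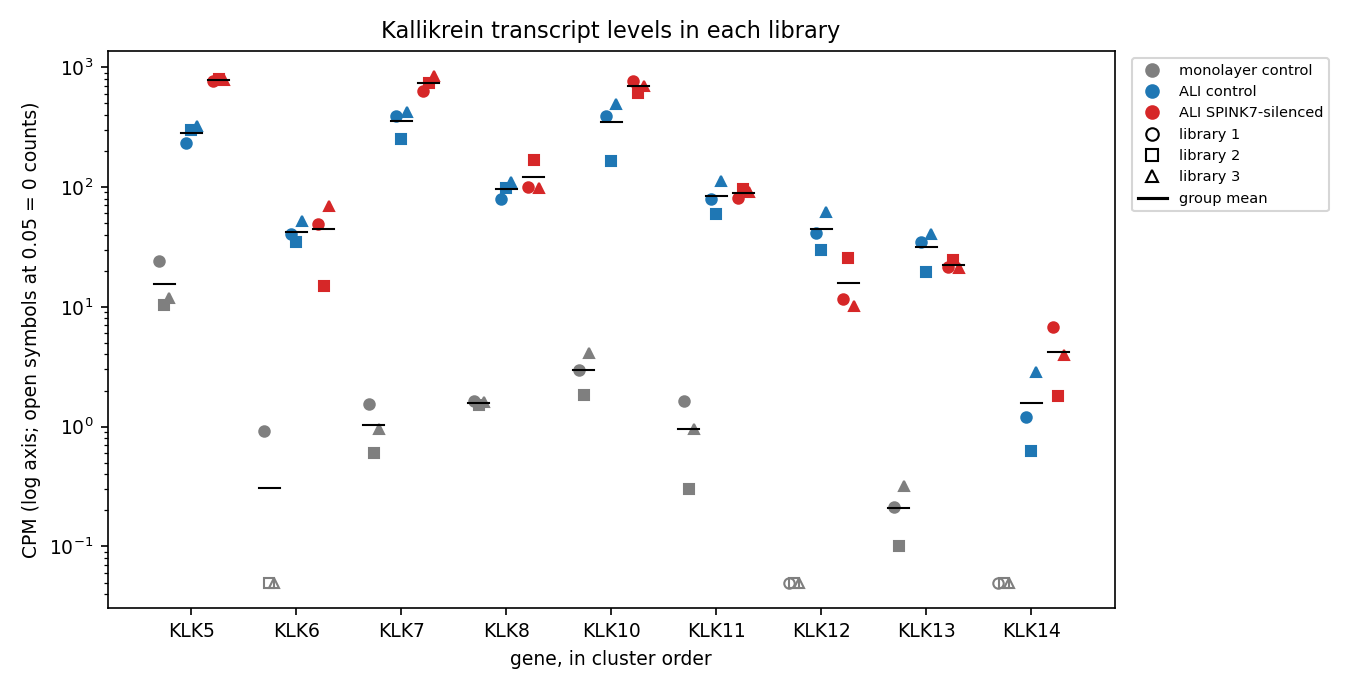
CPM of each kallikrein gene in each library on a log axis, with monolayer controls in grey, ALI controls in blue and ALI SPINK7-silenced libraries in red; symbol shapes give the library number, black bars the group means, and open symbols at the foot mark 0 counts. Every ALI library lies above every monolayer library for all 9 genes, and the red and blue symbols are fully separated for KLK5, KLK7, KLK10 and KLK12.

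In the silenced ALI libraries the kallikreins also stood far above the monolayers. All 9 passed the test as higher there, beside 15.8% of all genes tested, with KLK5 at 5.64, KLK7 at 9.41, KLK10 at 7.85 and KLK13 at 6.65 on the log2 scale. KLK12 was at least 192-fold and KLK14 at least 43.8-fold above the monolayer limit. These values share their monolayer libraries with those of the ALI controls and are given only side by side. The limit from the count filter holds here too.

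The rest of the kallikrein cluster differed in abundance. KLK9 had 17 counts in the monolayers and was at 9.931 ± 5.009 CPM (SD, n = 3) in the ALI controls (log2 fold change 4.23, edgeR adjusted p = 0.000212). KLK1, tissue kallikrein, had 0 monolayer counts and was at least 27.3-fold higher at 2.41 ± 0.8112 CPM. KLK2, KLK3 and KLK15 had 0 counts in every library, KLK4 had 3 counts in all and KLKP1 had 2. Of the nearest genes outside it, C19orf48 rose by 0.82 on the log2 scale (edgeR adjusted p = 0.017), CTU1 had a log2 fold change of 0.08, and SNORD88C, MGC45922, SIGLEC9 and SIGLEC7 had too few counts to test.

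Between the ALI groups, KLK5, KLK7 and KLK10 were higher and KLK12 was lower in every silenced library than in every control library, but none of the 9 passed the adjusted threshold of 0.05 in the edgeR test. KLK5 was at 231.6, 300.8 and 319.5 CPM in the controls and at 768.3, 788.3 and 774.1 CPM in the silenced libraries. The lowest silenced library was thus well above the highest control, and the silenced libraries lay within a narrow band. The log2 fold change was 1.45 (SE 0.32, 95% interval 0.75 to 2.15, edgeR adjusted p = 0.0658), which is 2.74-fold. KLK5 passed in 6 of 21 alternative analyses, with adjusted p-values from 0.000446 to 0.251 and log2 fold changes from 1.33 to 1.58. With both ALI libraries numbered 2 left out the value was 1.48 (edgeR adjusted p = 0.0238), and the largest p came from leaving out ALI control library 1 (1.33, edgeR adjusted p = 0.251).

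KLK7, which KLK5 can activate, was at 393.5, 252.5 and 418.3 CPM in the controls and at 628.7, 740.2 and 841.2 CPM in the silenced libraries. The groups did not overlap, and the log2 fold change was 1.05 (SE 0.29, 95% interval 0.40 to 1.71, edgeR adjusted p = 0.167). DESeq2 called it (1.04, adjusted p = 0.014), and edgeR with both ALI libraries numbered 2 left out gave 0.86 (adjusted p = 0.0563). Counting only the row with the most counts, KLK7 differed by 0.60 (edgeR adjusted p = 0.644).

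KLK10 was at 390.7, 163 and 487.9 CPM in the controls and at 770.8, 611.3 and 689.6 CPM in the silenced libraries. Control library 2 was the lowest by far, and the groups did not overlap. The log2 fold change was 0.99 (SE 0.39, 95% interval 0.13 to 1.85, edgeR adjusted p = 0.413), 0.65 without that control library (edgeR adjusted p = 0.375) and 0.73 without both libraries numbered 2 (edgeR adjusted p = 0.12).

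KLK12, a trypsin-like member, differed in the other direction. It was at 41.52, 29.64 and 61.22 CPM in the controls and at 11.59, 25.69 and 10.07 CPM in the silenced libraries. Silenced library 2 came close to the lowest control, also a library numbered 2. The log2 fold change was -1.48 (SE 0.42, 95% interval -2.44 to -0.51, edgeR adjusted p = 0.214). Without silenced library 2 it was -2.05 (edgeR adjusted p = 0.0496), and with control library 2 left out too it was -2.24 (edgeR adjusted p = 0.00056).

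The other members overlapped between the ALI groups. KLK8 had a log2 fold change of 0.34 (95% interval -0.20 to 0.88), KLK11 of 0.10 (-0.67 to 0.87) and KLK6 of 0.06 (-1.32 to 1.45). KLK6 stood at 49.24, 14.84 and 68.95 CPM in the silenced libraries, with library 2 the lowest. KLK13 was at 34.83, 19.42 and 40.29 CPM in the controls and at 21.4, 24.66 and 20.95 CPM in the silenced libraries (log2 fold change -0.50, 95% interval -1.13 to 0.13). It passed the edgeR test only in the fit without both ALI libraries numbered 2, of 21 alternatives (-0.83, adjusted p = 0.0369). KLK14, which can act together with KLK5 on junction proteins, was the least abundant member, at 1.206, 0.6306 and 2.855 CPM against 6.821, 1.786 and 3.98 CPM (log2 fold change 1.39, 95% interval -0.15 to 2.92). Its value moved to 0.84 without silenced library 1 and to 2.18 without ALI control library 3. All 5 intervals include 0 and extend to 0.87 or more in size on 1 side.

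As a family, 0 of 9 members were called higher and 0 of 9 lower between the ALI groups by edgeR, beside 0.226% and 0.703% of all genes tested. Without adjustment 4 had an edgeR p below 0.05 (3 higher, 1 lower), beside 1173 of all 12806 genes tested. DESeq2 called 2 higher (KLK5 and KLK7) and 1 lower (KLK12), beside 417 of 17994 genes fitted, 137 of them higher. The CPM of 3 members were higher without overlap and those of 1 were lower, while 5.76% of all genes were higher and 6.34% lower without overlap. The family median log2 fold change was 0.34, against 0.006 for all genes.

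**Figure D2:**
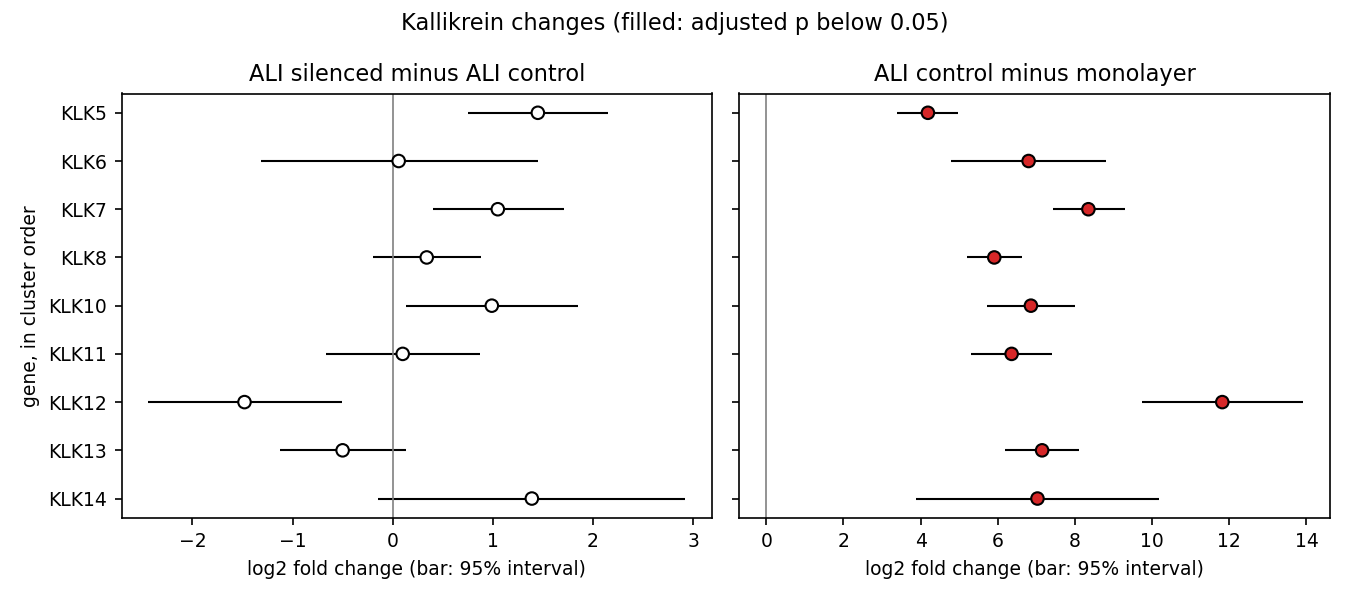
Log2 fold change of each kallikrein (points) with its 95% interval (bars) from the edgeR fit, for ALI silenced minus ALI control on the left and ALI control minus monolayer on the right; filled points passed an adjusted p of 0.05. All 9 points are filled on the right and none on the left, where KLK5 lies farthest above 0 (1.45) and KLK12 farthest below (-1.48); KLK12 and KLK14 had 0 monolayer counts, so their points on the right depend on the fit.

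Levels of different genes were compared per transcript length, with the RPKM values that the authors deposited (read counts scaled by transcript length and by the library's reads). In the ALI controls the order of mean RPKM was KLK5 (161.5 ± 26.6, SD, n = 3), KLK7 (141), KLK10 (95.1), KLK8 (87.9), KLK11 (53.8), KLK12 (35.9), KLK6 (22.4), KLK13 (20.2) and KLK14 (1.13). Each of the first 8 overlapped with its neighbour in this order in the single libraries, and KLK14 alone stood apart from the gene above it. In the silenced libraries the order was KLK5 (480.1 ± 13.99, SD, n = 3), KLK7 (321), KLK10 (201), KLK8 (114), KLK11 (62.1), KLK6 (25.1), KLK13 (15.3), KLK12 (14) and KLK14 (3.18). There the first 5 places did not overlap with the next gene, KLK6 overlapped with KLK13 and KLK13 with KLK12, and KLK14 again stood apart. The monolayers held mostly KLK5 (9.9 ± 4.62 RPKM, SD, n = 3), followed by KLK8 (1.83), and the other 7 had means under 1 RPKM.

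Summed over the 9 genes, the kallikreins reached 612.3, 462.7 and 782.7 RPKM in the ALI controls, 1155, 1277 and 1273 RPKM in the silenced libraries and 20.68, 9.69 and 12.77 RPKM in the monolayers. The silenced libraries were all higher than the controls in this sum. KLK5 made up 67.9 ± 6.27% of the summed RPKM in the monolayers, 26.9 ± 6.3% in the ALI controls and 38.92 ± 1.45% in the silenced libraries (SD, n = 3 each). The monolayer sums may count KLK10 and KLK11 reads more than once, which was not tested. These genes held 6.76% and 5.48% there on average. Neither ALI group overlapped with the group it was compared with, and the exact two-sided permutation test gave p = 0.1 for silencing and p = 0.1 for differentiation, the smallest that 3 against 3 libraries can give.

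The share of KLK5 was the only 1 of the 9 that was higher in all silenced than in all control libraries. Shares were lower without overlap for 4 genes: KLK6 (3.62% in the controls and 2.04% in the silenced libraries), KLK11 (8.52% and 5.02%), KLK12 (5.65% and 1.13%) and KLK13 (3.19% and 1.24%). KLK7 (22.68% and 25.89%), KLK8 (14.65% and 9.17%), KLK10 (14.62% and 16.33%) and KLK14 (0.17% and 0.26%) overlapped. Shares add up to the whole, so a higher share of 1 gene lowers the others.

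**Figure D3:**
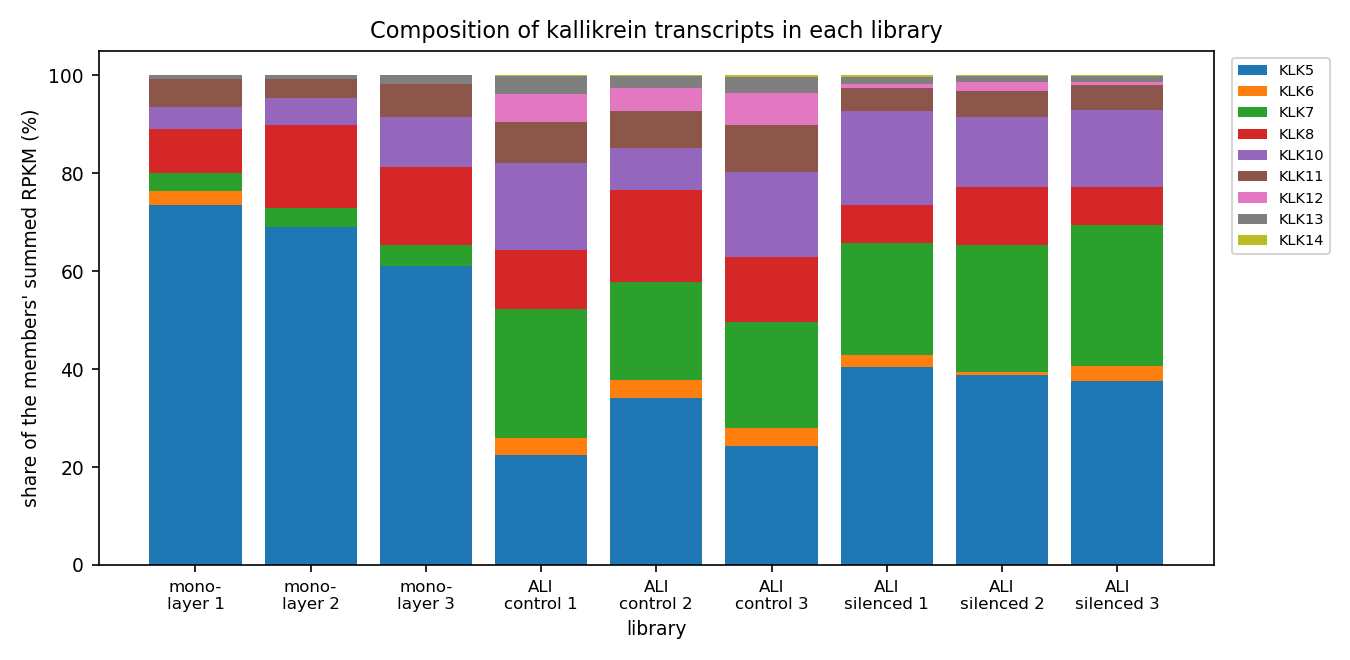
Share of each kallikrein in the summed RPKM of the 9 genes, in percent, as 1 stacked bar per library (3 monolayer, 3 ALI control and 3 ALI silenced libraries). KLK5 takes on average 67.9% of the monolayer bars, 26.9% of the ALI control bars and 38.92% of the silenced bars, and the KLK12 segment shrinks from 5.65% to 1.13% between the ALI groups.

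KLK7 was also counted on 2 transcript rows in the deposited tables, which end at the same 3′ position (51479735) and start 249 bases apart, at 51487320 (upstream) and 51487071 (downstream). In the ALI controls 0, 0 and 5 counts were assigned to the row with the downstream start, and in the silenced libraries 1883, 3810 and 1324 counts. The share of KLK7 counts on that row was 0.00, 0.00 and 0.13% in the controls and 27.98, 35.36 and 18.42% in the silenced libraries. The groups did not overlap, and nearly all control counts sat on the upstream row.

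A fit over transcript rows, added after seeing the data, gave the downstream row a mean of 0.1802 ± 0.3122 CPM in the ALI controls and of 197.2 ± 59.24 CPM in the silenced libraries (SD, n = 3 each; log2 fold change 9.87, SE 0.76, edgeR adjusted p = 0.00566). The fitted value rests on 5 control counts. It was 1 of 5 rows called higher among 14604 tested (0.0342%), and 0.144% were called lower. In 17 of 17 alternatives it was called, with adjusted p-values up to 0.038. The upstream row had means of 357.3 ± 94.79 and 536.5 ± 124.4 CPM, with a log2 fold change of 0.59 (SE 0.31, edgeR adjusted p = 0.737), and was called in 0 of these 17 alternatives. The monolayers held too few KLK7 counts to set a share beside these.

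The tables give only the outer coordinates of the rows, which overlap along nearly all of their length, and how reads common to several rows were counted is not given in the sources used here. In the monolayers KLK10 and KLK11 each had the same count on all 3 rows (33.33% each) in 2 libraries, so reads may have been divided evenly or counted on every row, which was not tested. Among 1366 genes with several rows and at least 100 counts in each ALI library, 127 (9.3%) had a row share that did not overlap between the ALI groups, and 32 (2.34%) also had a shift at least as large as that of KLK7. KLK7 itself is in each of these counts. The main rows of the other members with several rows had close mean shares in the ALI groups. KLK6 was at 100% on 1 row in all ALI libraries, and KLK10 at 99.68% and 99.59% on average. KLK11 averaged 74.01% and 73.7%, but its control libraries were far apart, at 83.33, 58.24 and 80.45%. Whether another start of KLK7 was used or reads were assigned differently was not tested.

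**Figure D4:**
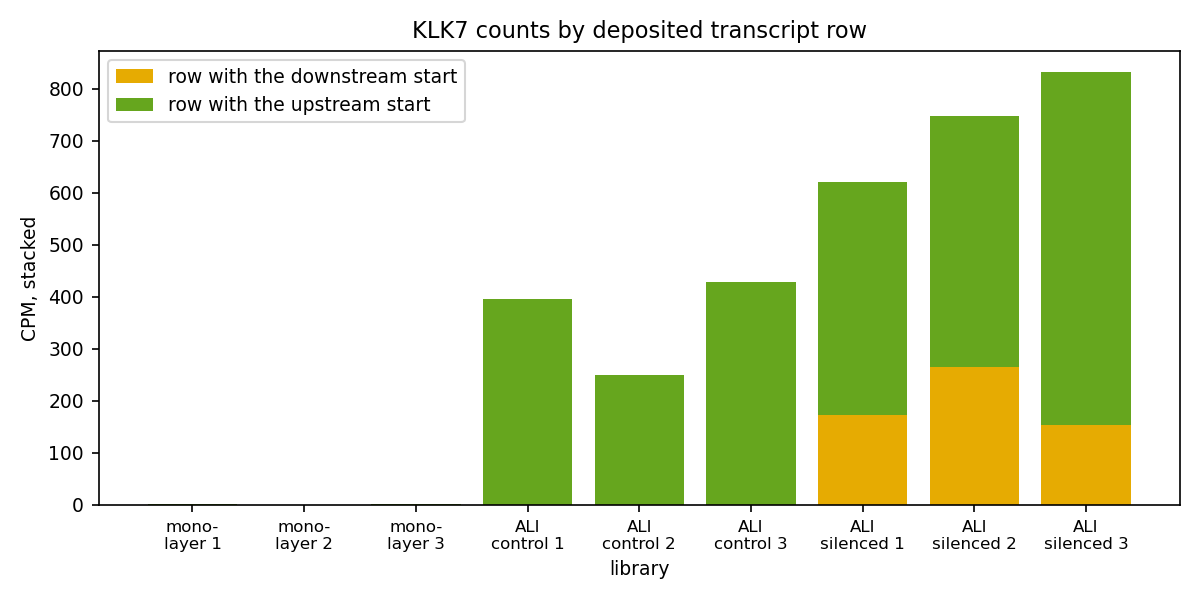
CPM of the 2 deposited KLK7 transcript rows in each library, stacked, from the fit over rows (orange, downstream start; green, upstream start). The orange part is 173.8, 264.6 and 153.3 CPM in the silenced libraries and at most 0.5407 CPM in each of the other 6.

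The inhibitors of these proteases were a list of 9 genes, of which 7 could be tested. In the ALI controls 7 of 7 were higher than in the monolayers (median log2 fold change 7.84), and in the silenced libraries 0 of 7 were called higher and 1 of 7 lower than in the controls (median -0.29). Of all genes tested, 20.3% were called higher with differentiation, and 0.226% higher and 0.703% lower with silencing. SERPINA12, SPINK6 and SERPINA3, at 0 or low in the monolayers, passed the count filter only with the ALI libraries. The list was chosen with earlier results of these data known, so its counts only describe it. The 1 listed gene called lower was SERPINA12 (vaspin), an inhibitor of KLK7. It was at 23.44, 122 and 44.31 CPM in the ALI controls and at 1.215, 0.5496 and 1.405 CPM in the silenced libraries (log2 fold change -5.94, SE 0.73, edgeR adjusted p = 0.0124). Every silenced library was far below every control, and the call was lost without silenced library 1 (adjusted p = 0.0735) or 3 (0.0742). Without ALI control library 2, the highest, the log2 fold change was -5.05 (edgeR adjusted p = 0.00144), and with silenced library 2 left out too it was -4.69 (edgeR adjusted p = 0.000104).

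SPINK5, whose product LEKTI inhibits KLK5, KLK7 and KLK14, was at 3536, 9747 and 3475 CPM in the ALI controls and at 601, 1606 and 1012 CPM in the silenced libraries. Control library 2 was the highest, and the groups did not overlap. The log2 fold change was -2.38 (SE 0.50, edgeR adjusted p = 0.0593), and it passed in 9 of 21 alternatives with adjusted p-values from 4.28e-05 to 0.235. Without control library 2 the value was -1.71 (edgeR adjusted p = 0.0476), and leaving out silenced library 2 as well gave -2.12 (edgeR adjusted p = 0.00058). SPINK6, another kallikrein inhibitor, was at 23.57, 8.45 and 20.51 CPM against 28.31, 22.26 and 32.78 CPM (log2 fold change 0.66, edgeR adjusted p = 0.617). SLPI and A2ML1, broad inhibitors of proteases, overlapped between the ALI groups (log2 fold changes -0.29 and -0.23, edgeR adjusted p = 0.84 and 0.845).

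KLK5 was set against SPINK5 per transcript length within each library, which does not depend on scaling between libraries. The log2 ratio of KLK5 to SPINK5 RPKM was -2.55, -3.64 and -2.06 in the ALI controls, 1.73, 0.35 and 0.99 in the silenced libraries and 3.73, 2.18 and 2.23 in the monolayers. SPINK5 RPKM exceeded KLK5 RPKM in 3 of 3 ALI controls, and KLK5 RPKM exceeded SPINK5 RPKM in 3 of 3 silenced libraries and 3 of 3 monolayers. The mean log2 ratio differed by 3.77 between the ALI groups, a 13.68-fold difference in the ratio, and by -5.46 between the ALI controls and the monolayers. The exact two-sided permutation test gave p = 0.1 for each, the smallest possible, and adjusted over these ratios and the KLK5 shares (4 tests) each was again 0.1. Leaving out single libraries moved the values between 3.33 and 4.12 for silencing and between -5.81 and -4.96 for differentiation.

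**Figure D5:**
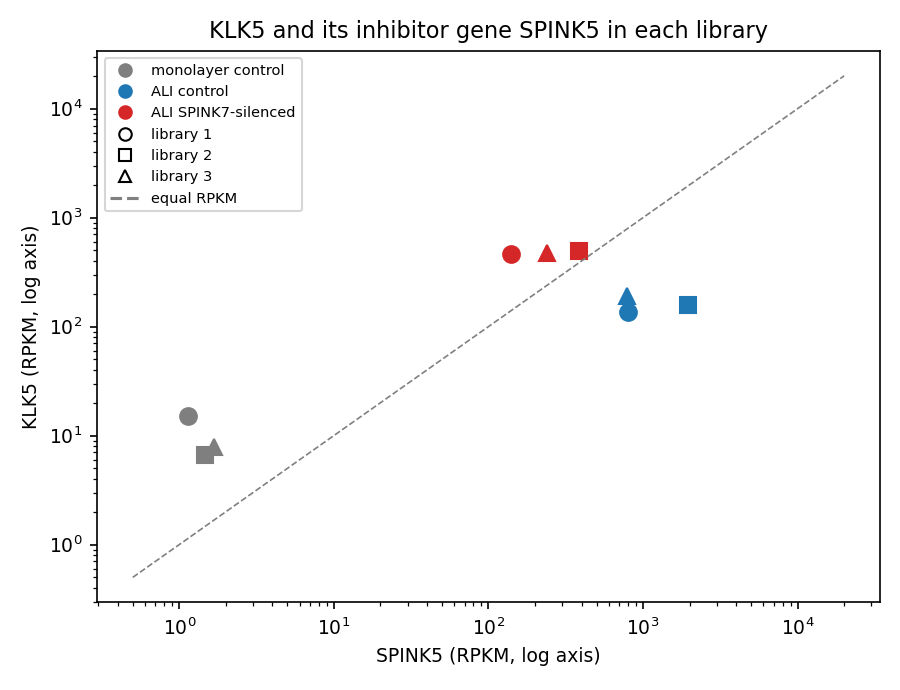
KLK5 RPKM (vertical, log axis) against SPINK5 RPKM (horizontal, log axis) in each library, coloured by group with the symbol shape giving the library number; the dashed line marks equal RPKM. The 3 ALI controls lie below the line, at log2 ratios of -3.64 to -2.06, and the 3 silenced libraries (0.35 to 1.73) and 3 monolayers (2.18 to 3.73) lie above it.

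Proteases that can activate kallikreins, and the inhibitors of those proteases, formed a list of 6 genes with 5 tested. None of the 5 was called between the ALI groups by edgeR (median log2 fold change 0.01), and matriptase (ST14) and prostasin (PRSS8) had values of 0.52 and 0.36. In the ALI controls 0 of 5 were higher and 1 of 5 lower than in the monolayers, and in the silenced libraries 1 (PRSS8, log2 fold change 1.04, edgeR adjusted p = 0.021) was higher and 1 lower. The lower gene was PLAU, the urokinase gene, at 1258, 1295 and 1264 CPM in the monolayers and 223.6, 136.1 and 232.9 CPM in the ALI controls (log2 fold change -2.69, edgeR adjusted p = 7.18e-05). PLAU thus moved opposite to the kallikreins between these groups. Of all genes tested, 20.3% were called higher and 20.2% lower in the ALI controls than in the monolayers. In the silenced libraries 15.8% were called higher than in the monolayers, which is 2023 of the 4058 genes called in either direction. Between the ALI groups 0.226% were called higher and 0.703% lower.

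Known protein substrates of the kallikreins formed a list of 8 genes with 7 tested. Of these, 4 of 7 were higher in the ALI controls than in the monolayers (median 6.86), and 0 of 7 were higher and 3 of 7 lower in the silenced libraries than in the controls (median -0.42). The shares over all genes tested were 20.3%, 0.226% and 0.703%. DSG1, DSC1 and FLG, low in the monolayers, passed the count filter only with the ALI libraries. This list too was chosen with earlier results known, so its counts only describe it. The 3 called lower with silencing were DSC1 and DSG1, desmosomal cadherins, and FLG, the filaggrin gene. DSG1 was at 1550, 1614 and 1648 CPM in the ALI controls and at 212.5, 170.8 and 303.9 CPM in the silenced libraries (log2 fold change -2.81, edgeR adjusted p = 0.0124). DSC1 had a value of -6.20 (edgeR adjusted p = 0.00246) and FLG of -3.67 (edgeR adjusted p = 0.0124). Without silenced library 1 or 3 the calls of DSG1 (adjusted p = 0.078 and 0.0564) and FLG (0.0779 and 0.0691) were lost. CDSN, which encodes corneodesmosin, a substrate of KLK5 and KLK7, was at 185.8, 192.7 and 190.9 CPM in the controls and at 232.5, 264.3 and 235.1 CPM in the silenced libraries. It did not pass (log2 fold change 0.36, edgeR adjusted p = 0.584), although its groups did not overlap. Whether cell numbers of 1 layer or RNA per cell differed cannot be told apart in these bulk samples, here and for the kallikreins.

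CDSN was also the gene whose log2 CPM over the 9 libraries was most like the mean pattern of the 9 kallikreins (Pearson r 0.996), followed by MACC1 (0.995) and KRT80, a keratin gene (0.995). For KLK5 alone the most alike were RAET1G (0.987), CTSL2 (0.986), which encodes a cathepsin, and SRD5A1 (0.985). These are the highest among 11126 genes over 9 libraries that fall into 3 groups, with the difference between monolayer and ALI cultures shared by all of them. Among the members themselves r ranged from 0.82 (KLK12 and KLK14) to 0.99, and KLK5 was least like KLK12 (0.89).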

How the data were processed

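Polyadenylated RNA was sequenced with stranded libraries, per the labels' protocols, in 9 libraries (3 groups of 3). Per the submitters' processing notes, STAR 2.4.2a, Bowtie, MACS2 and the build hg19 were used, with no role stated for any tool. Which program counted the reads, with which gene models and strand setting, is not given in the sources used here. Reads of overlapping or near-identical genes may therefore not be separated. Each deposited table holds, per the file headers, a whole-number count and an RPKM value that the authors made for each of 29800 transcript rows. The RPKM values imply read totals at least 1.14 to 1.24 times the counts.

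Counts were summed per symbol and chromosome. edgeR 4.0.16 (R 4.3.3) was run with TMM scaling, filterByExpr and a robust quasi-likelihood F-test over all 9 libraries, with Benjamini-Hochberg adjustment over 12806 genes and a threshold of 0.05. CPM use TMM-scaled library sizes, values after ± are SDs, and intervals use the degrees of freedom of the test. Limits for 0 counts are 3 counts over a group and cover counting error only. Ratios and shares used the deposited RPKM and exact permutation tests. DESeq2 1.42.0, limma 3.58.1 on log2(RPKM + 1) and log2(RPKM + 0.1), other filters and scalings, and fits without single libraries were alternatives. The fits over transcript rows and with monolayer libraries 2 and 3 summed were chosen after seeing the data.

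The members and gene lists were chosen with earlier results of these data known. Named beside the members are up to 5 genes per list (those called with the largest change, then the most abundant), 3 genes most like KLK5 and like the members' mean, 3 flanking genes on each side, and SPINK7. SPINK6, SERPINA3 and the single marker genes were named after their values were seen. A leukocyte marker of the list is not reported here and was left out of its sum.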

Additional observations from a re-analysis of the deposited data

How the results depend on the processing

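The 9 rises with differentiation were called in all 21 alternatives for 8 members and in all 19 that could test KLK14. Between the ALI groups 0 members were called higher and 0 lower in the analysis reported, and the following differed. DESeq2 called 2 higher (KLK5, KLK7) and 1 lower (KLK12), beside 417 of 17994 genes fitted, 137 of them higher. Without a low-count filter, and with limma on log2(RPKM + 1) or log2(RPKM + 0.1), 1 was higher (KLK5). Over all genes 45, 52 and 46 were called higher in these settings. Without both ALI libraries numbered 2, 1 was higher (KLK5) and 2 were lower (KLK12, KLK13), and calls over all genes went from 119 to 708. Leaving out single libraries gave 0 to 1 higher (KLK5, without monolayer 1) and 0 to 1 lower (KLK12, without silenced library 2). Calls over all genes were 98 (20 higher) without monolayer 1 and 236 (92 higher) without silenced library 2. KLK6, near 0, changed sign with limma-voom (-0.21), on log2(RPKM + 1) (-0.05), on log2(RPKM + 0.1) (-0.06), with the replicate block (-0.18), and without ALI control 2 (-0.07), silenced 1 (-0.02) or silenced 3 (-0.42), within a leave-one-out range of -0.42 to 0.46. KLK11 changed sign without ALI control 2 (-0.10, within a leave-one-out range of -0.10 to 0.38) and without both ALI libraries numbered 2 (-0.16). The causes were not tested. RPKM scaling moved the median of all genes by up to 0.133 for silencing and by up to -0.204 for differentiation.

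Same-numbered libraries did not deviate together throughout (correlations 0.49, 0.58 and -0.01 for silencing, -0.16, -0.22 and -0.01 for differentiation), so the numbers were not taken as pairs. With the replicate block 0 members were called higher and 0 lower between the ALI groups and 9 higher with differentiation, KLK5 was at 1.44 (edgeR adjusted p = 0.0741), and calls over all genes were 176. Outside the members the block made SPINK5 a call between the ALI groups (-2.34, edgeR adjusted p = 0.0117). In the paired form of the ratio and share tests the exact sign-flip p was 0.25, the smallest for 3 pairs. Monolayer libraries 2 and 3 differed least of the replicate pairs (chi-square per gene 1.91 against 16.8 to 160); summed as 1 library they left the member counts as reported. The KLK5 share moved between 9.74 and 15.61 percentage points for silencing, and between -44.59 and -38.2 for differentiation, when single libraries were left out. Few counts limit KLK14 in every group and KLK6 and KLK13 in the monolayers.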
